A study of Mus musculus with 12 samples.

Results

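The 10 genes Rgs2, Rgs3, Rgs4, Rgs10, Rgs12, Rgs14, Rgs16, Rgs19, Gpsm1 and Gpsm2 encode regulators of the inhibitory G protein (Gi) cycle. They were chosen by name and found in the 20114 entries of the deposited count table that name a single locus. All 10 had an entry. Of these, 2 share an entry with a neighbour, Gpsm1 with Dnlz and Gpsm2 with Clcc1, and those counts may hold reads of both genes.

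RNA was measured in 12 libraries of primary mammary epithelial cells from adult female mice aged 9 weeks, on a background mixed from 129X1/SvJ, C57BL/6 and Swiss Webster, in 3 groups of 4. Recombined cells (mT-mG/SmoM2;MMTV-Cre) were SmoM2 positive and were sorted as green, EGFP-labelled cells. Unrecombined cells came from the same genotype but were SmoM2 negative and red, with tdTomato. Wild type cells (mT-mG/SmoM2;+) carried the same reporter and SmoM2 alleles without Cre and were red. All 3 groups thus carried the mT-mG reporter and the SmoM2 allele. SmoM2 is an activated form of Smoothened, the membrane protein that relays the Hedgehog signal, and the title of the series asks about a Gi alpha subunit downstream of it. Cre was driven by the MMTV promoter, which marks only the cells in which that promoter has been active. SmoM2, Cre activity and the sorted color cannot be told apart in comparisons with recombined cells, since no green cells without SmoM2 were analysed here. The labels do not say which animals a library came from, so p-values measure only the spread between these libraries.

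A Gi alpha subunit carries a signal while it is bound to GTP and stops when the GTP is cut to GDP. RGS proteins speed that cut and so shorten the signal. Proteins with a GoLoco motif (also called GPR motif), such as Gpsm1 and Gpsm2, instead bind the GDP form and hold it away from the beta and gamma subunits. In dividing epithelial cells Gpsm2 (LGN) ties the Gi alpha subunit at the cell cortex to Numa1, which anchors the mitotic spindle.

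Total counts per library lay between 19581993 and 34779433, and recombined library 3 was the shallowest. It and recombined library 4 showed the fewest loci, 14256 and 14601, against 15289 to 16814 in the other libraries. By the numbers in the column headers, recombined and unrecombined libraries 3 and 4 and wild type library 4 form a series numbered higher than the rest. What these numbers stand for is not given, and the series were not balanced between wild type and the other groups. In recombined library 3, 37 loci that had at least 1 CPM (TMM-scaled counts relative to library size) in all 11 other libraries had a count of 0, against 0 to 5 such loci in any other library. Smo (counted with AK053708), Ptch1 and Gli1 (counted with Arhgap9) checked the labels, and all lay higher in recombined cells. Ptch1, a Hedgehog target, had 133 to 809 CPM in recombined, 24.8 to 61.3 CPM in unrecombined and 34.5 to 38.1 CPM in wild type libraries. Smo had 49.1 to 74.7 CPM in recombined, 26.8 to 36.8 CPM in unrecombined and 18.7 to 35.2 CPM in wild type libraries. Gli1 had 11.2 to 30.5 CPM in recombined, 2.14 to 7.44 CPM in unrecombined and 2.23 to 5.50 CPM in wild type libraries.

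The make-up of the sorted cells also moved with the groups. Of 12 basal or myoepithelial markers, 10 were higher in recombined cells than in wild type and 11 than in unrecombined ones. Their summed level was 7787 to 15221 CPM in recombined, 3701 to 7575 CPM in unrecombined and 4106 to 5226 CPM in wild type libraries. Of 9 fibroblast markers, 8 were lower in recombined cells in either comparison, with sums of 400 to 1014 CPM in recombined, 6692 to 9198 CPM in unrecombined and 2050 to 4228 CPM in wild type libraries. The 2 red groups also differed in these sums. Between unrecombined and wild type cells 0 fibroblast markers passed with edgeR, 4 with DESeq2 and 3 with limma-voom. In edgeR 8 had an unadjusted p under 0.05 (3.85% of all loci), with a median log2 fold change of 1.48. Of 9 hormone-sensing luminal markers, 6 were lower in recombined than in wild type cells and 3 lower than in unrecombined cells, with sums of 609 to 1796, 2602 to 4384 and 3084 to 5921 CPM in recombined, unrecombined and wild type libraries. No basal, fibroblast, luminal progenitor or luminal keratin marker had a count of 0 in any library. Macrophage and dendritic markers summed to 16.8 to 27.5 CPM in recombined, 17.7 to 38.0 CPM in unrecombined and 38.4 to 118 CPM in wild type libraries, 4 of 9 tested were lower in recombined than in wild type cells, and up to 3 of 11 had a count of 0 in a library. Between unrecombined and wild type cells 0 of 9 passed with edgeR, DESeq2 or limma-voom. In edgeR 3 of them had an unadjusted p under 0.05 (3.85% of all loci), with a median log2 fold change of -1.27 over the 9. Pericyte markers summed to 47.7 to 106 CPM in recombined, 79.7 to 92.7 CPM in unrecombined and 53.4 to 83.3 CPM in wild type libraries. Of 6 tested, 2 pericyte markers were higher and 1 lower in recombined than in wild type cells, with 1 in each direction against unrecombined cells. Endothelial markers summed to 31.5 to 85.1 CPM in recombined, 80.2 to 150 CPM in unrecombined and 65.6 to 114 CPM in wild type libraries, and 1 of 6 was lower in recombined than in unrecombined cells. There all 6 had an unadjusted p under 0.05 in edgeR (18% of all loci), DESeq2 called 3, and the median log2 fold change was -1.28. Against wild type cells edgeR called 0 and DESeq2 2, 2 had an unadjusted p under 0.05 in edgeR (20.6% of all loci), and the median was -1.03. Luminal progenitor markers summed to 959 to 3243, 2003 to 3834 and 1801 to 2753 CPM in recombined, unrecombined and wild type libraries, and 0 of 6 passed with edgeR, DESeq2 or limma-voom, with 0 at an unadjusted p under 0.05. Luminal keratins summed to 578 to 1357, 1122 to 2132 and 1208 to 2361 CPM in the same groups. Of 3 keratins 0 passed with edgeR or limma-voom, but all 3 had an unadjusted p under 0.05 in edgeR in both comparisons with recombined cells, and DESeq2 called 3 of 3 between recombined and wild type cells. Lymphocyte and platelet markers summed to at most 6.45 CPM in any library, with up to 10 of 10 lymphocyte markers at 0. Salivary gland transcripts reached 9596, 49613 and 19051 CPM in library 2 of the recombined, unrecombined and wild type groups, against at most 653 CPM elsewhere. In these bulk samples, fewer cells of a type and less RNA per cell cannot be told apart.

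Of the 10 genes, 9 passed the filter on low counts and entered the edgeR test (quasi-likelihood, two-sided), adjusted by Benjamini-Hochberg over all 14039 loci tested, with a threshold of 0.05. Between recombined and wild type cells 0 of 9 passed, where 6.55% of all loci tested did, and 3 had an unadjusted p under 0.05, which 20.6% of all loci had. DESeq2 called 2 of the 9 (Rgs2 and Rgs3) and limma-voom 0. Over all loci DESeq2 called 1726 there and limma-voom 759, against 920 with edgeR. Between recombined and unrecombined cells 1 of 9 passed, Rgs12, where 5.22% of all loci did (3.08% higher), and 3 had an unadjusted p under 0.05, which 18% of all loci had. Between unrecombined and wild type cells 0 of 9 passed with edgeR, DESeq2 or limma-voom, 0 had an unadjusted p under 0.05 (3.85% of all loci), and 0% of all loci passed with edgeR. The libraries of those 2 groups overlapped for all 9, and did not for 4.42% of all loci. With 9 genes tested, 0 and 1 calls lie near what these shares would give. The median log2 fold change of the 9 genes was 0.63 between recombined and wild type cells (-0.02 over all loci), 0.25 between recombined and unrecombined cells (-0.01 over all loci) and 0.24 between unrecombined and wild type cells (-0.00 over all loci). The comparisons share libraries, so their values are given side by side and not counted as separate support.

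**Figure D1:**
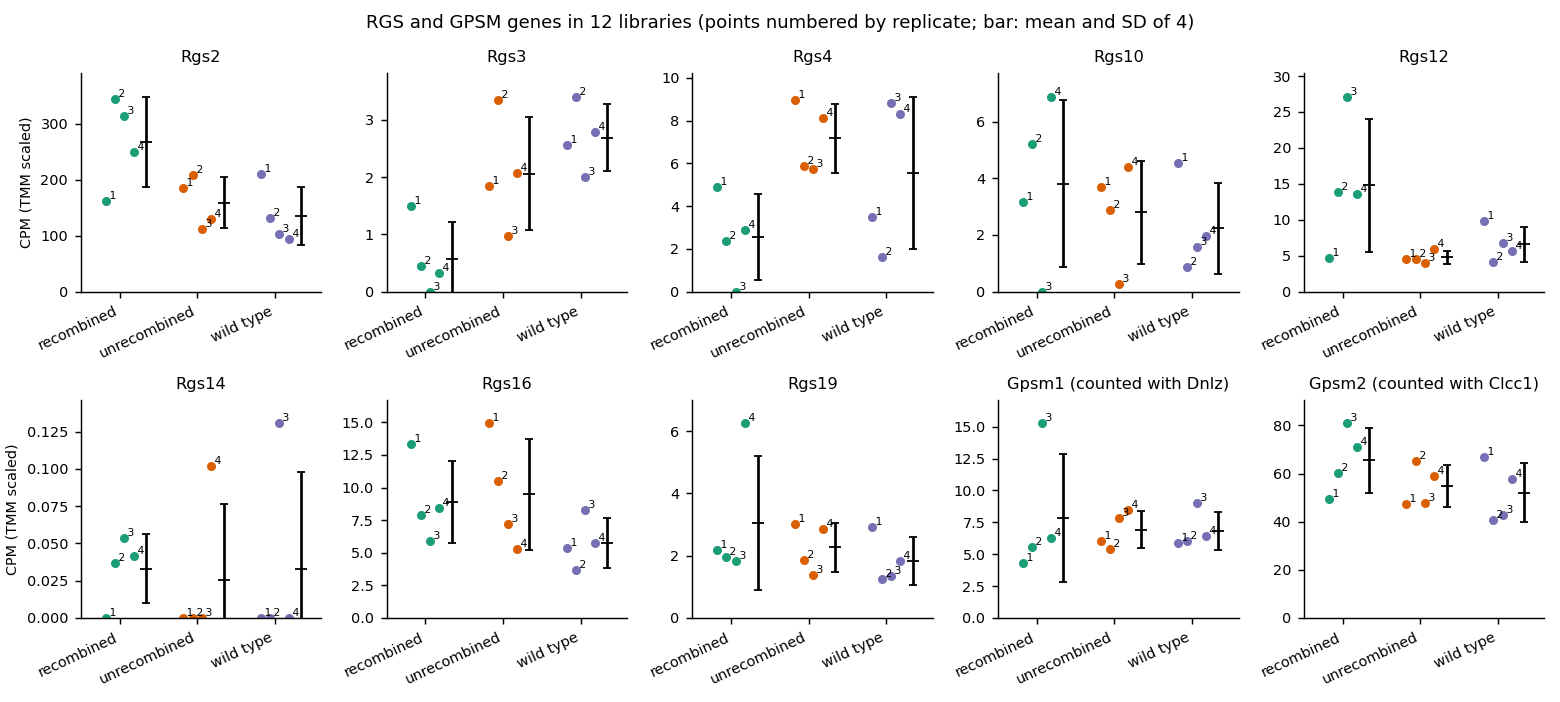
Level of each of the 10 genes in every library in TMM-scaled CPM (vertical axis, linear), with recombined, unrecombined and wild type libraries in columns, points numbered by replicate, and a bar for the mean and SD of 4 libraries (SD bars end at 0). In recombined cells 3 of 4 Rgs12 points lie above 13 CPM, Rgs2 spans 162 to 345 CPM, and library 3 is at 0 for Rgs3, Rgs4 and Rgs10.

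Rgs12 was the one member that passed the test. The protein joins an RGS domain, which speeds GTP cutting, to a GoLoco motif, which holds the GDP form. Its entry (chromosome 5, start 35292096 in mm9) had 4.66, 13.9, 27.1 and 13.6 CPM in recombined libraries 1 to 4, against 4.49, 4.52, 4.03 and 5.98 CPM in unrecombined libraries and 9.78, 4.06, 6.72 and 5.70 CPM in wild type libraries. Recombined libraries 2 to 4 lay above every red library, while recombined library 1 lay within the range of both red groups. Means were 14.8 ± 9.26 CPM in recombined and 4.75 ± 0.846 CPM in unrecombined cells (SD, n = 4 each), a log2 difference of 1.64 ± 0.447 (SE; 3.11-fold; edgeR adjusted p = 0.0492). Recombined libraries 1 to 4 exceeded the unrecombined library of the same number in 4 of 4 pairs, by 0.05, 1.56, 2.68 and 1.16 on the log2 scale with 0.25 CPM added. With these numbers as pairs the difference was 1.54 in the edgeR fit of all 12 libraries (adjusted p = 0.0790). In the paired edgeR fit of the 2 groups alone it was 1.41 (adjusted p = 0.109). The call was at the edge of the threshold: it held when recombined library 1 or wild type library 2 was left out and was lost when any of the other 10 libraries was, with an adjusted p of 0.00544 to 0.156 and a difference of 1.19 to 1.93. Without recombined libraries 3 and 4 the difference was 0.97 (adjusted p = 0.465), and without the 3 libraries with most salivary transcripts it was 1.67 (adjusted p = 0.150).

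Against wild type cells, with 6.56 ± 2.40 CPM, the Rgs12 difference of 1.17 ± 0.441 did not pass (edgeR adjusted p = 0.144). Without recombined library 1 it was 1.47 and passed (adjusted p = 0.0235). Over all loci, 1217 passed against wild type cells without that library, against 920 with it. Recombined library 1 also had the lowest sum of basal markers among recombined libraries, 7787 CPM, and the part of basal cells in the Rgs12 values was not tested. Unrecombined and wild type cells differed by -0.47 ± 0.438 (adjusted p = 1.00). A second entry names Rgs12 together with the microRNA gene Mir3097, and the meaning of such entries is not given in the sources used here. This second entry held 5, 8, 12 and 15 reads in recombined libraries, against 1, 0, 2 and 2 reads in unrecombined and 4, 0, 1 and 0 reads in wild type libraries. These few reads lie outside the tested count. They come from the same libraries as the Rgs12 values and are no separate support for the Rgs12 difference.

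The promoter sequences below are shown for Rgs12, the member that passed, and for Rgs2, the member next nearest to the threshold. They are the 250 bases before annotated start sites, from RefSeq on GRCm38.p6, written 5′ to 3′ in the direction of the gene. The windows of Rgs12 are chr5:34949198-34949447 and chr5:34998828-34999077 on the plus strand, and that of Rgs2 is chr1:144004150-144004399 on the minus strand. Capitals mark matches, on either strand, to the shorter form of the cAMP response element (CRE) or to the CCAAT box.
Rgs12, first start: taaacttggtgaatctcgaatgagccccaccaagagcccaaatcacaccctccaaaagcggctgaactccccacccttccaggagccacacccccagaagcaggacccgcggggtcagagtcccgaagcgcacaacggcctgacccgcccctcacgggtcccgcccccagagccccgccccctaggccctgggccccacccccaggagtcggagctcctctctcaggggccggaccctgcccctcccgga
Rgs12, second start: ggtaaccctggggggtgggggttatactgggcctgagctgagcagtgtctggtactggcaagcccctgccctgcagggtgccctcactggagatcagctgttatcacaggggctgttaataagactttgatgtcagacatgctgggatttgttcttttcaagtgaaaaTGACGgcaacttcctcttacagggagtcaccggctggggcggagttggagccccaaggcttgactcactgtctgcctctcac
Rgs2: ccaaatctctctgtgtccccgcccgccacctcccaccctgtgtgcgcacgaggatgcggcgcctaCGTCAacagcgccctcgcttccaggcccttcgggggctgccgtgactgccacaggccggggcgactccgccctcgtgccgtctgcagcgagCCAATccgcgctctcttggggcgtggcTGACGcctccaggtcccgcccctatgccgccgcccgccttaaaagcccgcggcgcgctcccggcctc

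Promoters of 9 of the 10 genes were found, Rgs14 not among them, in 16 windows. The letters searched on both strands were GACCACCCA (a site of the Hedgehog factor GLI), TGACGTCA (the full CRE), the short CRE, which is TGACG, and the CCAAT box, whose letters are its name. The short CRE lies within the full one, so a full element would also count as a short one. GACCACCCA was in none of the members' windows and in 0.225% of 32851 promoters of the same length, and TGACGTCA was in none and in 1.55%. The short CRE was in 3 of the members' 16 windows (18.8%), those of Rgs2, Rgs4 and Rgs12, and in 17.8% of all promoters. In Rgs2 it stood at -185 to -181 on the minus strand and at -67 to -63 on the plus strand, counted from the start, and in the second Rgs12 window at -82 to -78. The CCAAT box was in 5 of the 16 windows (31.2%) and in 33.8% of all promoters. In Rgs2 it stood at -94 to -90. A match describes these letters and not a bound site, and the lack of a match says only that the letters are not in these windows.

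Rgs2 was nearest to the threshold against wild type cells. The protein prefers the Gq alpha subunits, which raise calcium, and its gene is known as quickly induced. Its entry (chromosome 1, 145846467) had 162, 345, 315 and 249 CPM in recombined libraries, against 185, 209, 113 and 131 CPM in unrecombined and 210, 132, 104 and 94.8 CPM in wild type libraries. Recombined libraries 2 to 4 lay above all 8 red libraries, and recombined library 1 lay among them. Means were 268 ± 81.0 CPM in recombined, 159 ± 45.1 CPM in unrecombined and 135 ± 52.4 CPM in wild type cells (SD, n = 4 each). The log2 difference from wild type cells was 0.99 ± 0.291 (edgeR adjusted p = 0.0598), and that from unrecombined cells was 0.75 ± 0.290 (adjusted p = 0.175). The difference from wild type cells passed without recombined library 1 (1.16, adjusted p = 0.0205), without wild type library 1 (1.28, adjusted p = 0.0190), with the replicate number as a block (1.04, adjusted p = 0.0380) and with DESeq2 (adjusted p = 0.0194). That block also matched wild type libraries by number, though these were not taken as pairs. Without recombined libraries 3 and 4 the Rgs2 difference from wild type cells was 0.90 (adjusted p = 0.327). Over all loci, 920 passed against wild type cells in the main fit. That count was 1217 without recombined library 1, 724 without wild type library 1, 1194 with the block and 1726 with DESeq2. In pairs of the same number, recombined cells were higher in 3 of 4. Immediate early genes, which sorting itself can induce, summed to 11829 to 18741 CPM in recombined, 11280 to 13820 CPM in unrecombined and 9498 to 19096 CPM in wild type libraries, so the groups overlapped in that sum. Of these 12 genes 1 was higher in the recombined group, the transcription factor gene Egr2, by 1.39 ± 0.264 against wild type cells (edgeR adjusted p = 0.00638) and by 1.35 ± 0.264 against unrecombined cells (adjusted p = 0.00737). Of all loci tested, 6.55% and 5.22% passed in these comparisons. At an unadjusted p under 0.05 edgeR had 4 of the 12 against wild type cells (20.6% of all loci) and 2 against unrecombined cells (18%). Both Egr2 calls were lost without recombined libraries 3 and 4 (0.85, adjusted p = 0.110 and 0.81, adjusted p = 0.138). Between unrecombined and wild type cells 0 of the 12 immediate early genes passed with edgeR, DESeq2 or limma-voom and 0 had an unadjusted p under 0.05, with the smallest p for Junb (-0.36 ± 0.211) and Fos (-0.37 ± 0.227), each with an adjusted p of 1.00. The part of Egr2 or of dissociation in the Rgs2 values was not tested.

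**Figure D2:**
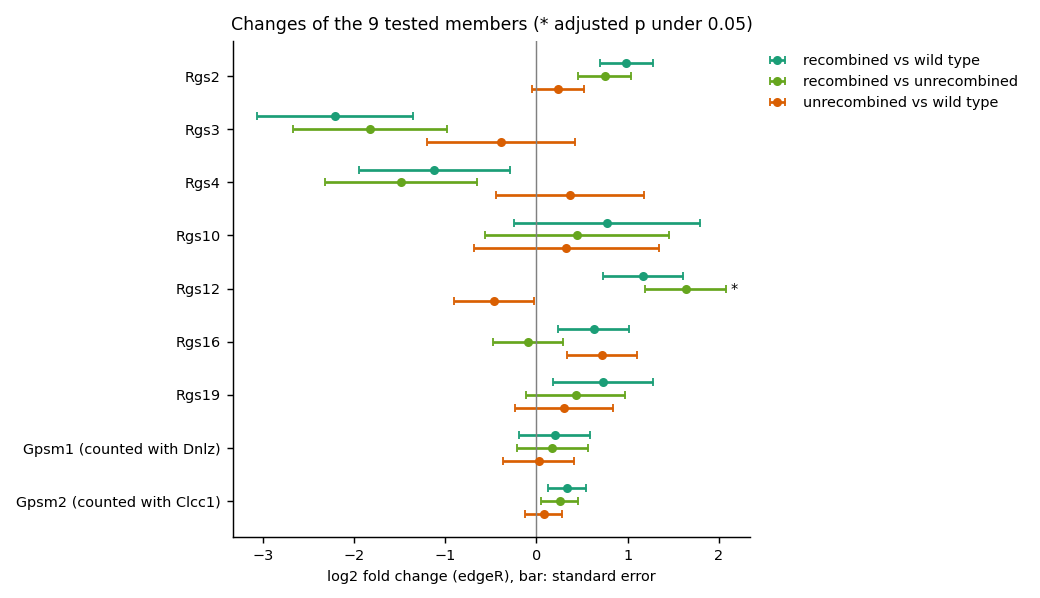
Log2 fold change of the 9 tested genes (horizontal axis) in the 3 comparisons, as points with the SE as a bar, from edgeR. The asterisk marks the one value past the threshold, Rgs12 between recombined and unrecombined cells (1.64), and the bars of Rgs10 and Gpsm1 cross 0 in all 3 comparisons.

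Rgs3 and Rgs4 had lower counts in recombined cells, and neither passed with edgeR. Both encode RGS proteins that act on Gi and Gq subunits. Rgs3 (chromosome 4, 62220880) had 1.49, 0.440, 0 and 0.330 CPM in recombined libraries, against 1.85, 3.35, 0.970 and 2.07 CPM in unrecombined and 2.55, 3.41, 2.01 and 2.80 CPM in wild type libraries. These rest on few reads, 50, 12, 0 and 8 in recombined libraries. Recombined and wild type libraries did not overlap. Rgs3 was the 1 tested member for which that held between these groups, against 12.2% of all loci (5.91% with the recombined libraries lower). The log2 difference from wild type cells was -2.21 ± 0.855 (edgeR adjusted p = 0.156) and that from unrecombined cells -1.83 ± 0.846 (adjusted p = 0.274). The difference from wild type cells passed with DESeq2 (adjusted p = 0.0265) and without recombined library 1 (-3.33, adjusted p = 0.0357). Without recombined libraries 3 and 4 it was -1.48 (adjusted p = 0.359). Over all loci, 1726 passed against wild type cells with DESeq2 and 1217 without recombined library 1, against 920 in the main fit.

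Rgs4 (chromosome 1, 171671607) had 4.90, 2.38, 0 and 2.89 CPM in recombined libraries, against 8.95, 5.88, 5.71 and 8.11 CPM in unrecombined and 3.51, 1.63, 8.81 and 8.32 CPM in wild type libraries. Recombined and unrecombined libraries did not overlap, as in 11.3% of all loci (5.71% with the recombined libraries lower), and wild type libraries fell in both ranges. The log2 difference was -1.48 ± 0.832 from unrecombined cells (edgeR adjusted p = 0.379) and -1.12 ± 0.827 from wild type cells (adjusted p = 0.495). The count of 0 in recombined library 3 is one of the 37 such losses of that library. Without that library the differences were -1.07 (adjusted p = 0.365) and -0.71 (adjusted p = 0.542). Recombined cells were lower in 4 of 4 pairs for Rgs3 and in 4 of 4 pairs for Rgs4. Fibroblast and hormone-sensing luminal markers were lower in recombined cells as well, and their part in the values of Rgs3 and Rgs4 was not tested.

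**Figure D3:**
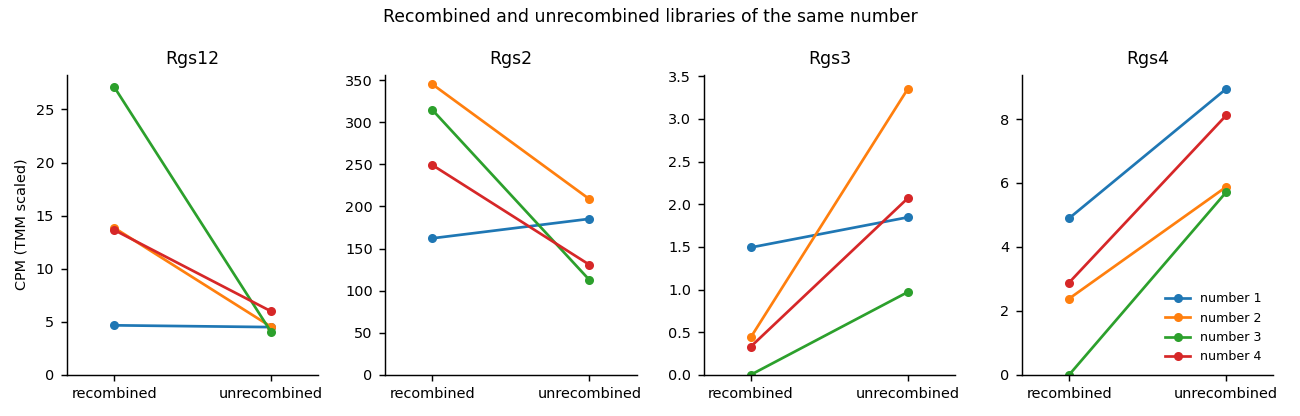
Level in TMM-scaled CPM (vertical axes, linear, each from 0) of Rgs12, Rgs2, Rgs3 and Rgs4 in recombined (left) and unrecombined (right) libraries, with a line joining libraries of the same replicate number. Rgs12 was higher in recombined cells in 4 of 4 pairs and Rgs2 in 3 of 4, while Rgs3 and Rgs4 were lower in 4 of 4, and the Rgs12 line of number 1 is nearly flat (4.66 and 4.49 CPM).

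Rgs10, Rgs16 and Rgs19, which encode RGS proteins acting on Gi family subunits, showed no difference past the threshold. Rgs16 (chromosome 1, 155587482) had 13.3, 7.88, 5.87 and 8.45 CPM in recombined libraries, against 15.0, 10.5, 7.19 and 5.26 CPM in unrecombined and 5.38, 3.64, 8.25 and 5.77 CPM in wild type libraries. Its log2 difference was 0.63 ± 0.387 between recombined and wild type cells (edgeR adjusted p = 0.397), 0.72 ± 0.387 between unrecombined and wild type cells (adjusted p = 1.00) and -0.09 ± 0.384 between recombined and unrecombined cells (adjusted p = 0.935). Both groups from MMTV-Cre mice thus averaged above wild type, within the spread. Rgs10 (chromosome 7, 135517138) had 3.17, 5.20, 0 and 6.88 CPM in recombined libraries, against 3.69, 2.86, 0.252 and 4.41 CPM in unrecombined and 4.53, 0.851, 1.57 and 1.97 CPM in wild type libraries. Libraries of one group ranged so widely that the SE of its differences was 1.01 to 1.02, the largest of the 9 genes. The differences were 0.77 from wild type cells (adjusted p = 0.734) and 0.44 from unrecombined cells (adjusted p = 0.875). Without recombined library 3, where its count was 0, they were 1.19 (adjusted p = 0.464) and 0.88 (adjusted p = 0.653). Rgs19 (chromosome 2, 181423127), whose protein binds the Gi alpha subunit Gnai3, had 2.18, 1.94, 1.83 and 6.27 CPM in recombined libraries, against 3.01, 1.85, 1.37 and 2.85 CPM in unrecombined and 2.93, 1.24, 1.35 and 1.83 CPM in wild type libraries. Recombined library 4 stood above the other 11 libraries, which overlapped. The Rgs19 difference was 0.73 ± 0.544 from wild type cells (adjusted p = 0.497) and 0.43 ± 0.541 from unrecombined cells (adjusted p = 0.745). Without recombined library 4 the Rgs19 differences were 0.11 (adjusted p = 0.935) and -0.19 (adjusted p = 0.897).

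Rgs14, which like Rgs12 carries both an RGS domain and a GoLoco motif, was hardly measured. Its entry (chromosome 13, 55471092) held 0, 1, 1 and 1 reads in recombined libraries, 0, 0, 0 and 3 reads in unrecombined libraries and 0, 0, 3 and 0 reads in wild type libraries. Each group summed to 3 reads, so no difference was detectable at this depth. A count of 0 allows up to 3 reads, or 0.0896 to 0.162 CPM depending on the library, for counting error only.

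The entries that hold Gpsm1 and Gpsm2, which encode GoLoco proteins, showed no difference past the threshold. The entry of Gpsm2 with Clcc1 (chromosome 3, 108456830) had 49.5, 60.4, 81.0 and 71.2 CPM in recombined libraries, against 47.5, 65.4, 47.7 and 59.0 CPM in unrecombined and 66.8, 40.8, 42.9 and 57.6 CPM in wild type libraries. Its SE of 0.207 was the smallest of the 9 genes, and its differences were 0.33 from wild type cells (edgeR adjusted p = 0.403) and 0.25 from unrecombined cells (adjusted p = 0.574). The entry of Gpsm1 with Dnlz (chromosome 2, 26171052) had 4.30, 5.53, 15.3 and 6.27 CPM in recombined libraries, against 6.01, 5.39, 7.87 and 8.45 CPM in unrecombined and 5.86, 6.00, 8.99 and 6.42 CPM in wild type libraries. Recombined library 3 held the highest value and recombined library 1 the lowest, so the recombined libraries enclosed both red groups. The differences were 0.20 ± 0.389 from wild type cells (adjusted p = 0.8292) and 0.18 ± 0.389 from unrecombined cells (adjusted p = 0.870). Without recombined library 3 both turned negative, to -0.34 and -0.36.

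**Figure D4:**
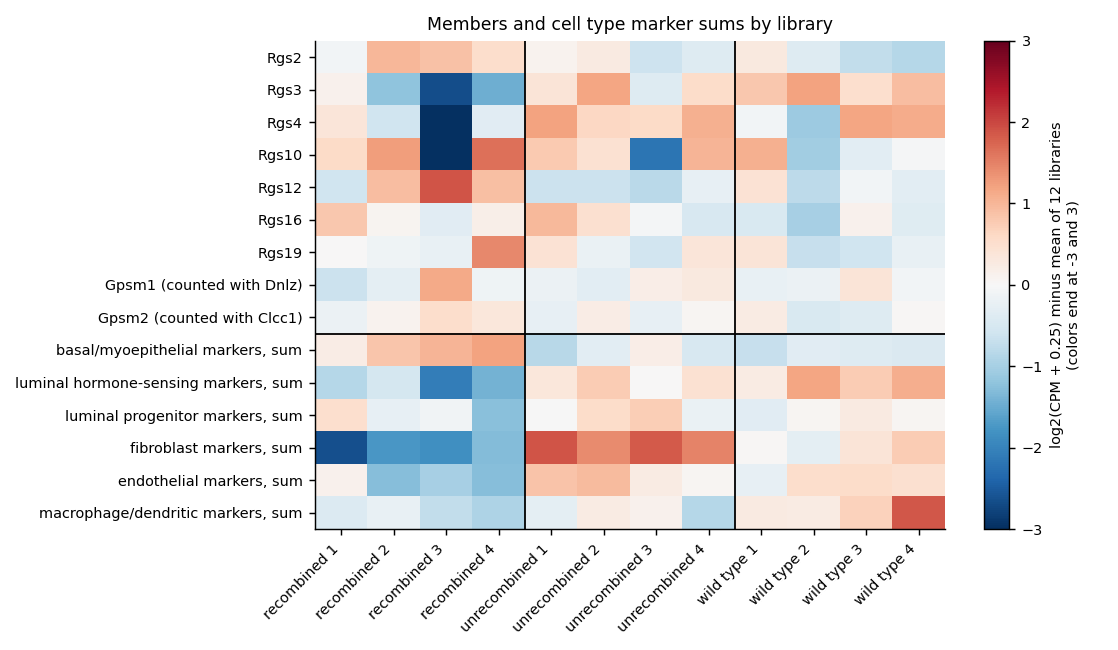
Log2(CPM + 0.25) of the 9 tested genes and of the sums of 6 marker lists, each row less its mean over 12 libraries (color scale ends at -3 and 3), with recombined, unrecombined and wild type libraries in columns 1 to 4 each. Rgs2 and Rgs12 are above their means in recombined libraries 2 to 4, Rgs3 is below its mean in the same 3, basal sums are above and fibroblast sums below their means in all 4 recombined libraries.

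Levels of different genes were compared per length, as mean CPM per kilobase of the union of annotated exons, for the 8 genes counted alone. Rgs2 stood highest in every group, with 73.8, 43.9 and 37.3 CPM per kilobase in recombined, unrecombined and wild type cells. Its lowest library, 26.1 CPM per kilobase, was above the highest library of any other member, 6.39 CPM per kilobase for Rgs16. Rgs16 followed with 3.80, 4.05 and 2.46 CPM per kilobase in the same order of groups. In recombined cells the next were Rgs10 (2.23), Rgs12 (1.75), Rgs19 (1.37) and Rgs4 (0.820 CPM per kilobase), and the ranges of neighbours in that order overlapped. In unrecombined cells Rgs4 came next after Rgs16 at 2.31 CPM per kilobase, ahead of Rgs10 (1.64), Rgs19 (1.02) and Rgs12 (0.560), and in wild type cells it also came next after Rgs16, at 1.80 CPM per kilobase. Rgs3 (0.0524, 0.191 and 0.249 CPM per kilobase) and Rgs14 (at most 0.0309 CPM per kilobase in any library) closed the order in all 3 groups. Gene models of another build than that of the counts gave the lengths, and a transcript shorter than the union has a higher level per length than stated.

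Other RGS family genes were also mostly low, apart from Rgs9, Rgs20 and Rgs5. In recombined, unrecombined and wild type cells Rgs9 averaged 23.8, 23.6 and 16.9 CPM and Rgs20 10.3, 13.5 and 16.4 CPM. The Rgs5 means were 8.35, 14.6 and 9.33 CPM. Of 13 listed, 12 had an entry (Rgs21 had none under that name) and 5 were tested, and 0 of 5 passed with edgeR, DESeq2 or limma-voom in any comparison. At an unadjusted p under 0.05 edgeR had 1 between recombined and wild type cells and 0 in both other comparisons. The median log2 fold change of the 5 was -0.16 between recombined and wild type cells, -0.40 between recombined and unrecombined cells and -0.28 between unrecombined and wild type cells. The smallest p between recombined and wild type cells were those of Rgs1, a leukocyte gene (-2.08 ± 0.909, adjusted p = 0.213), and Rgs20 (-0.67 ± 0.336, adjusted p = 0.280). Between recombined and unrecombined cells they were those of Rgs5, a gene of pericytes (-0.81 ± 0.474, adjusted p = 0.404), and Rgs1 (-1.30 ± 0.893, adjusted p = 0.492). Rgs5 had 17.6, 4.47, 7.16 and 4.12 CPM in recombined libraries, against 19.7, 17.6, 10.6 and 10.6 CPM in unrecombined and 6.85, 4.92, 12.4 and 13.1 CPM in wild type libraries. Recombined library 1 lay within the range of the unrecombined libraries, and without it the Rgs5 difference from unrecombined cells was -1.48 ± 0.418 and passed (adjusted p = 0.0491). Over all loci, 1044 passed against unrecombined cells without that library, against 733 with it. Between unrecombined and wild type cells the smallest p were those of Rgs5 (0.65 ± 0.473) and Rgs9 (0.49 ± 0.505), each with an adjusted p of 1.00.

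Among the alpha subunits that RGS and GoLoco proteins act on, 1 of 10 tested was higher in recombined cells, Gnai1. Against wild type cells 6.55% of all loci passed and against unrecombined cells 5.22%, in either direction. It had 32.1, 62.5, 78.8 and 85.8 CPM in recombined libraries, against 23.2, 40.3, 22.1 and 22.3 CPM in unrecombined and 21.0, 12.5, 10.5 and 14.1 CPM in wild type libraries. Every recombined library lay above every wild type library, and recombined library 1 lay below unrecombined library 2. Every unrecombined library also lay above every wild type library, and those groups did not overlap in 4.42% of all loci, in either direction. Recombined and wild type libraries did not overlap in 12.2% of all loci, in either direction. The log2 difference was 2.15 ± 0.329 from wild type cells (edgeR adjusted p = 0.00160), which passed under all 23 alternatives tried. From unrecombined cells it was 1.26 ± 0.319 (adjusted p = 0.0335). That call was lost in turn without recombined library 2, 3 or 4, without unrecombined library 1, 3 or 4 and without wild type library 4 (adjusted p up to 0.108), and without recombined libraries 3 and 4 together (0.82, adjusted p = 0.407). In unrecombined against wild type cells 0 of 10 passed with edgeR, DESeq2 or limma-voom and 1, Gnai1, had an unadjusted p under 0.05 in edgeR (3.85% of all loci). The smallest p there were those of Gnai1 (0.89 ± 0.318) and Gnat1 (1.47 ± 1.32), each with an adjusted p of 1.00. The median over the 10 subunits was 0.23 between recombined and wild type cells, 0.13 between recombined and unrecombined cells and 0.20 between unrecombined and wild type cells.

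Of 12 other listed regulators of the Gi cycle 11 were found (Ric8a had no entry under that name) and 10 tested. Between recombined and wild type cells 2 of 10 were lower and 0 higher, and between recombined and unrecombined cells 1 was lower. Of all loci tested, 6.55% and 5.22% passed in these comparisons, in either direction. Ccdc88c (Daple), which activates Gi without a receptor, had 12.9, 15.0, 9.31 and 16.2 CPM in recombined libraries, against 21.8, 26.3, 33.7 and 26.5 CPM in unrecombined and 22.9, 29.8, 20.8 and 30.5 CPM in wild type libraries. All 4 recombined libraries lay below all 8 red ones. Recombined libraries lay below every wild type library in 5.91% of all loci and below every unrecombined library in 5.71%. The Ccdc88c differences were -0.96 ± 0.234 from wild type cells (edgeR adjusted p = 0.0249) and -1.02 ± 0.234 from unrecombined cells (adjusted p = 0.0201). The first was lost without recombined library 3, wild type library 2 or wild type library 4 (adjusted p up to 0.0877), the second without recombined library 3, unrecombined library 3 or unrecombined library 4 (adjusted p up to 0.0686), and both without recombined libraries 3 and 4 (adjusted p = 0.116 and 0.0999). With the libraries as pairs, the Ccdc88c difference from unrecombined cells passed in the fit of all 12 libraries (adjusted p = 0.0192) and missed the threshold in the fit of the 2 groups alone (adjusted p = 0.0528). Rgs7bp, which anchors some RGS proteins at the membrane, held 2, 1, 0 and 0 reads in recombined libraries, against 16, 12, 9 and 12 reads in unrecombined and 7, 4, 28 and 23 reads in wild type libraries. It was lower than in wild type cells (adjusted p = 0.0331), and without any one of recombined library 2, 3 or 4, unrecombined library 1, 3 or 4, or wild type library 3 or 4 that call was lost (adjusted p up to 0.107), as it was with the replicate number as a block (adjusted p = 0.0752). Comparing unrecombined with wild type cells, 0 of 10 passed with edgeR, DESeq2 or limma-voom and 0 had an unadjusted p under 0.05, with the smallest p for Rap1gap (-0.43 ± 0.371) and Gpsm3 (-0.60 ± 0.714), each with an adjusted p of 1.00. The list's median log2 fold change was -0.60 between recombined and wild type cells, -0.42 between recombined and unrecombined cells and -0.12 between unrecombined and wild type cells.

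Of 13 spindle orientation partners of Gpsm2, 12 were tested. Between recombined and wild type cells 1 was higher and 1 lower, and between recombined and unrecombined cells 2 were higher and 1 lower. Of all loci tested, 6.55% and 5.22% passed in these comparisons, in either direction. Pard6g, a polarity protein of the Par complex, had 10.8, 6.82, 7.43 and 25.1 CPM in recombined libraries, against 3.26, 1.43, 3.09 and 5.43 CPM in unrecombined and 5.11, 2.32, 4.01 and 3.01 CPM in wild type libraries. Every recombined library lay above all 8 red ones. Libraries did not overlap in 12.2% of all loci against wild type and in 11.3% against unrecombined cells, in either direction. The Pard6g differences were 1.79 ± 0.499 from wild type cells (edgeR adjusted p = 0.0470) and 1.92 ± 0.501 from unrecombined cells (adjusted p = 0.0390). The first was lost without recombined library 1 or 4, without unrecombined library 1 or 3 and without any one wild type library, the second without recombined library 4, unrecombined library 1, 2 or 3, or wild type library 3 or 4 (adjusted p up to 0.155 and 0.140). Without recombined library 4 they were 1.21 and 1.33. Pard3, of the same complex, was higher in recombined than in unrecombined cells, with 163, 139, 121 and 165 CPM against 101, 90.8, 90.7 and 114 CPM (0.57 ± 0.147, adjusted p = 0.0365). That call was lost without recombined library 1, 2 or 4, unrecombined library 1, 2 or 3, or wild type library 1 or 4 (adjusted p up to 0.0993). Frmpd4, a scaffold protein with FERM and PDZ domains, held 2, 1, 0 and 0 reads in recombined libraries, against 17, 14, 16 and 40 reads in unrecombined and 10, 65, 59 and 34 reads in wild type libraries. It was lower than in wild type (adjusted p = 0.00545) and in unrecombined cells (adjusted p = 0.0170), and the second call was lost without unrecombined library 4 (adjusted p = 0.0540). With the libraries as pairs, that Frmpd4 call passed in the fit of all 12 libraries (adjusted p = 0.0399) and was lost in the fit of the 2 groups alone (adjusted p = 0.0769). Without recombined libraries 3 and 4 neither Frmpd4 call passed (adjusted p = 0.0570 and 0.131). For unrecombined against wild type cells 0 of 12 passed with any of the 3 tools and 0 had an unadjusted p under 0.05, with the smallest p for Prkci (-0.34 ± 0.182) and Pard3 (-0.21 ± 0.146), each with an adjusted p of 1.00. The median over the 12 was 0.08 between recombined and wild type cells, 0.19 between recombined and unrecombined cells and -0.12 between unrecombined and wild type cells.

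Proliferation genes, among them the cyclin gene Ccnb2, were read beside the spindle genes because dividing cells use them. Of 15 tested, 0 passed in any comparison with edgeR, DESeq2 or limma-voom. At an unadjusted p under 0.05 edgeR had 3 between recombined and wild type cells (20.6% of all loci) and 1 between recombined and unrecombined cells (18%). Between unrecombined and wild type cells it had 2 (3.85%). Their median log2 fold change was -0.92, 0.01 and -1.01 in the same order of comparisons. The 15 genes summed to 294 to 546 CPM in recombined, 241 to 603 CPM in unrecombined and 288 to 1245 CPM in wild type libraries. The groups thus overlapped, and the 1245 CPM was that of wild type library 1, with 508 CPM next among wild type libraries. The smallest p between recombined and wild type cells were those of Mcm6 (-1.15 ± 0.452, edgeR adjusted p = 0.163) and Pcna (0.40 ± 0.173, adjusted p = 0.212). Between recombined and unrecombined cells they were those of Ccnb2 (1.43 ± 0.654, adjusted p = 0.264) and Pcna (0.34 ± 0.173, adjusted p = 0.332), and between unrecombined and wild type cells those of Ccnb2 (-1.52 ± 0.655) and Mcm4 (-0.67 ± 0.304), each with an adjusted p of 1.00.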

How the data were processed

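Primary mammary epithelial cells were purified by fluorescence-activated sorting, their total RNA was extracted (miRNeasy kit) and libraries were made for Illumina sequencing, per the labels' protocols. The submitters' processing notes name STAR and HTSeq 0.3.1 with mouse build mm9. Options, strand setting and annotation are not given in the sources used here, so a gene and an antisense or overlapping partner cannot be told apart. The deposited table holds raw read counts, whole numbers with a different total in each library, for 36635 entries, of which 20114 name a single locus. Entries that name several loci took 0.0617% to 0.101% of each library and were left out of the main tests.

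Groups came from the sample titles and genotype labels. Counts were scaled by the trimmed mean of M values (TMM), filtered by the default rule of edgeR 4.0.16 in R 4.3.3, and tested with its quasi-likelihood F test with robust dispersion, all 12 libraries in 1 fit, two-sided, adjusted by Benjamini-Hochberg over 14039 loci. The standard error is the size of the log2 fold change divided by the square root of F. Values per library are TMM-scaled CPM. Intervals, floors and errors from counts cover counting error only, since reads without molecular identifiers are not independent molecules. Exon lengths came from GENCODE M21 on GRCm38 and promoters from RefSeq on GRCm38.p6, used for lengths and sequences only. The fit was tested on simulated data.

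Members and gene lists were chosen with earlier results of these data known, so they are described by counts and values, with no test of a list. The genes named are all 10 members, those of each other list past the threshold (at most 6 per comparison), or the 2 with the smallest p where none passed, with Smo, Ptch1 and Gli1 as a check of the labels. Marker lists are given by counts and sums. Rgs5 without recombined library 1 and the Rgs12 entry with Mir3097 were described after their values were seen.

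To check replicate numbers as pairs, each library's deviation from its group mean was correlated across loci with those of other libraries. Recombined and unrecombined libraries of the same number correlated with r of 0.261 to 0.448 in 4 of 4 pairs (different numbers -0.246 to -0.0376), so these were taken as pairs. Wild type libraries correlated with r of -0.0337 to 0.244 with recombined and -0.00218 to 0.349 with unrecombined libraries of the same number and were not. Deviations from a mean cancel within a group, so higher values for the same number bring lower ones for different numbers. Number 2, with the most salivary transcripts in each group, gave the highest r of the same number in every comparison, 0.448, 0.244 and 0.349. The replicate block in the fit of all 12 libraries still matched wild type libraries by number.

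Alternatives were size factors of DESeq2, upper quartile scaling, limma-voom (limma 3.58.1), the Wald test of DESeq2 1.42.0, no filter, a filter of at least 1 CPM in 4 libraries, only the groups compared, the replicate block, all entries of the table, recombined libraries 3 and 4 left out together, and each library left out in turn. Chosen after seeing the data were the 3 libraries with most salivary transcripts left out, and the 2 groups compared alone with the replicate block.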

Additional observations from a re-analysis of the deposited data

Results flagged for a closer look

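Of 30 combinations of member and group tested for a library apart from the other 3, 3 stood out by Dixon's test, which sets the gap to the nearest value against the range of 4 libraries. Chance gives about 1 in 20. Rgs19 had 6.27 CPM (152 reads) in recombined library 4, against 1.83 to 2.18 CPM in the other recombined libraries. Rgs14 had 0.102 CPM in unrecombined library 4 and 0.131 CPM in wild type library 3, each from 3 reads where the other 3 libraries of the group had 0, so these rest on the counting floor.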

How the results depend on the processing

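The members called between recombined and wild type cells numbered 0, against 2 with DESeq2, 1 with the replicate block (Rgs2, 1.04, adjusted p = 0.0380) and 0 to 3 with one library left out: 3 without recombined library 1 (Rgs2, Rgs3 and Rgs12) and 1 without wild type library 1. Between recombined and unrecombined cells the 1 call, Rgs12, was 0 under upper quartile scaling, limma-voom, no filter, the 2 groups alone, the replicate block, the 2 groups with the block, recombined 3 and 4 left out, and the salivary libraries left out, and 0 to 1 with one library left out. It held with the size factors or test of DESeq2, the stricter filter and all entries. The other RGS genes called there were 0 to 1 with one library left out. Over all loci, 920 passed between recombined and wild type cells, against 1726 with DESeq2, 594 with the 2 groups alone, 248 without recombined 3 and 4, 470 without the salivary libraries and 502 to 1217 with one library left out. Between recombined and unrecombined cells 733 passed, against 1457 with DESeq2, 282 without recombined 3 and 4 and 449 to 1044 with one library left out. Between unrecombined and wild type cells 0 passed and 541 had an unadjusted p under 0.05, against 60 with DESeq2, 18 with limma-voom, 8 with the 2 groups alone and 1 with the replicate block. The causes were not tested. Among the listed genes named above, calls against wild type cells were lost in 1 of 23 alternatives for Egr2, 6 of 23 for Ccdc88c, 14 of 23 for Pard6g, 1 of 22 for Frmpd4 and 13 of 21 for Rgs7bp, and calls against unrecombined cells in 1 of 24 for Egr2, 5 for Frmpd4, 7 for Ccdc88c, 9 for Gnai1, 10 for Pard6g and 13 for Pard3.

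Directions that turned were all of differences that did not pass. With limma-voom, Rgs10 was -0.20, -0.17 and -0.026 (recombined against wild type, recombined against unrecombined, unrecombined against wild type), Gpsm1 -0.042 and -0.085 in the first 2, and Rgs16 0.022 in the second. With the replicate block Rgs10 was -0.027 and -0.36 against wild type cells, for recombined and unrecombined cells, and with the 2 groups and the block -0.037 between them. Without recombined 3 and 4, Gpsm1 was -0.47 and -0.49 against wild type and unrecombined cells, and Rgs16 0.16 and Rgs19 -0.14 against unrecombined cells. Without the salivary libraries Gpsm2 was -0.10 between unrecombined and wild type cells and Rgs16 0.029 between recombined and unrecombined cells, and under upper quartile scaling Gpsm1 was -0.0067 between unrecombined and wild type cells. With one library left out, the ranges that crossed 0 were, between recombined and wild type cells, -0.34 to 0.40 for Gpsm1, and between recombined and unrecombined cells -0.36 to 0.38 for Gpsm1, -0.0035 to 0.88 for Rgs10, -0.36 to 0.22 for Rgs16 and -0.19 to 0.63 for Rgs19. Between unrecombined and wild type cells they were -0.084 to 0.19 for Gpsm1 and -0.022 to 0.22 for Gpsm2. Rgs3, Rgs4 and Rgs10 had a count of 0 in recombined library 3, and Rgs14 held at most 3 reads in any library, so no difference in Rgs14 was detectable at this depth.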
